A study of Homo sapiens with 10 samples.

Results

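The snoRNA host lncRNA genes are long noncoding RNA genes known as carriers of small nucleolar RNAs (snoRNAs) in their introns. Here they were taken by name, as the GENCODE genes named SNHG followed by a number together with GAS5, DANCR and ZFAS1. RefSeq places no snoRNA in SNHG10, SNHG20, SNHG21, SNHG22 or SNHG27, which the names include. The rule gave 31 genes of the 63299 in the count files, and 28 of them had enough counts to be tested among 16143 genes. The libraries came from U2OS cells, an established osteosarcoma line, 48 h after transfection with a pool of siRNAs. There were 5 libraries of control knockdown (siCtrl) and 5 of knockdown of the DEAD box helicase DDX41 (siDDX41). Polyadenylated RNA was sequenced, and the assigned counts ranged from 21807041 to 24896398 per library. No label says that the 5 samples of a group were separate cultures, so p-values measure only the spread between these samples, which may be technical.

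Host RNAs of this class are transcribed by RNA polymerase II and spliced, and the snoRNAs are trimmed out of the excised introns while the joined exons leave the nucleus. Box C/D snoRNAs guide ribose methylation and box H/ACA snoRNAs guide pseudouridylation of ribosomal and spliceosomal RNA. The exons mostly hold short open reading frames, and many such spliced hosts are degraded through nonsense-mediated decay (NMD), a surveillance pathway that acts on translated RNA. Several hosts start with a pyrimidine tract, the 5′ terminal oligopyrimidine (TOP) motif otherwise known from mRNAs of ribosomal proteins and translation factors.

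DDX41 was measured first, since it checks the labels. Its level, given as CPM, the count relative to the library total after scaling by trimmed mean of M-values, was 49.1, 49.4, 47.4, 47.2 and 50.5 in siCtrl replicates 1 to 5. It was 11.5, 13.7, 12.4, 11.2 and 12.4 CPM in siDDX41 replicates 1 to 5. All siDDX41 libraries lay below all siCtrl libraries, and the log2 fold change was -1.99 ± 0.05 (SE; adjusted p = 4.47e-24, edgeR quasi-likelihood test, adjusted over all tested genes by the Benjamini-Hochberg method).

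The cell line label was compared with 9 markers of bone and mesenchymal cells. SPARC, VIM and COL1A1 were abundant, at 2807 ± 32.8, 2465 ± 51.0 and 1875 ± 100.3 CPM in siCtrl (SD, n = 5), and the osteoblast regulator RUNX2 was at 32.4 ± 1.25 CPM. ALPL was low at 5.01 ± 0.811 CPM, and COL1A2, TWIST1, BGLAP and IBSP were at or near 0, the highest of them COL1A2 at 0.448 ± 0.203 CPM. The summed level of 7 markers of leukocytes, endothelium, epithelium and liver was 10.6 ± 0.419 CPM in siCtrl and 10.3 ± 0.773 CPM in siDDX41, of which EPCAM made up 7.99 ± 0.447 and 8.31 ± 0.742 CPM. CD3E had no count in any library, and CDH5 fell from 1.02 ± 0.260 to 0.355 ± 0.139 CPM. Of the bone and mesenchymal markers, RUNX2 fell to 24.6 ± 0.827, ALPL to 3.08 ± 0.492 and VIM to 2321 ± 37.8 CPM in siDDX41, SPARC rose to 3181 ± 96.5 CPM, and COL1A1 at 1766 ± 94.6 CPM did not pass the test. The sum of all 9 was 7185 ± 128 CPM in siCtrl and 7296 ± 155 CPM in siDDX41. What part these markers have in the results below was not tested.

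To see how the host genes differ at their starts, the 40 bases around the RefSeq transcription start were read for the 27 members with an entry in the promoter table (SNHG6, SNHG9, SNHG15 and SNHG25 have none). Each window holds 20 bases before the start and the first 20 bases of exon 1 (GRCh38.p14, strand of the gene), and capitals mark TCTTT or CCTTT, searched on that strand alone. These letters were chosen after the sequences had been seen. The windows shown are chr5:9546180-9546219 (plus strand) for SNHG18, chr9:136728165-136728204 (minus) for SNHG7, chr16:2155339-2155378 (minus) for SNHG19, chr11:62855866-62855905 (minus) for SNHG1 and chr4:118278742-118278781 (plus) for SNHG8. Those of SNHG29 at chr17:16438967-16439006 (plus), SNHG5 at chr6:85678714-85678753 (minus), ZFAS1 at chr20:49278622-49278661 (plus), SNHG17 at chr20:38435309-38435348 (minus) and SNHG10 at chr14:95534853-95534892 (minus) follow.
SNHG18: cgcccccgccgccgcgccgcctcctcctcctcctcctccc
SNHG7: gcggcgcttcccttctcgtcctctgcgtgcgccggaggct
SNHG19: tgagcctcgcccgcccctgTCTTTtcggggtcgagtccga
SNHG1: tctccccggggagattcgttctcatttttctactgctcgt
SNHG8: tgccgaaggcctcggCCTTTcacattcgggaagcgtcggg
SNHG29: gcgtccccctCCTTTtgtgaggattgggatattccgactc
SNHG5: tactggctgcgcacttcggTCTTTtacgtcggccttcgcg
ZFAS1: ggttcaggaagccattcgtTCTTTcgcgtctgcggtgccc
SNHG17: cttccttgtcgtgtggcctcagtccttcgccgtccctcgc
SNHG10: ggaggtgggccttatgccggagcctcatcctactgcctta
In SNHG19, SNHG5 and ZFAS1 the capitals begin 1 base before the annotated start. Over the 27 members, 10 windows (37%) held one of the 2 motifs, against 9.53% of all 35116 promoters, 7.55% of the 11491 promoters of tested genes and 60% of those of 60 tested ribosomal protein genes. The RefSeq start need not be the one used in U2OS cells, so a window without a match says only that these letters are not in it. It also differs from the outermost GENCODE start, by 154975 bases in SNHG14, 37251 in SNHG27, 1927 in SNHG20 and 1259 in SNHG12. The windows of SNHG14, GAS5 and SNHG3 lie wholly outside the gene as given here, the latter 2 with starts 163 and 37 bases apart.

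After DDX41 knockdown 13 of the 28 tested host genes fell, 4 rose and 11 did not pass the test (adjusted p under 0.01, edgeR quasi-likelihood test, Benjamini-Hochberg). Over all 16143 tested genes 32.1% fell and 30.3% rose, so the members that fell (46.4%) were more frequent and those that rose (14.3%) less frequent than over all genes, a description without a test. The median log2 fold change was -0.14 over the tested members and -0.0014 over all tested genes. With a change of more than 0.25 on the log2 scale also required, 9 members fell and 3 rose, against 25.4% and 21.1% of all genes. The 5 siDDX41 libraries lay wholly below the 5 siCtrl libraries for 13 members and wholly above for 3, against 29.3% and 26.7% of all genes. In bulk samples, fewer cells with an RNA and less of it per cell cannot be told apart.

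SNHG18, the host of SNORD123 on chromosome 5 (chr5:9546170-9550725, plus strand, 3 exons), fell the most. Its level was 10.8, 9.55, 12.5, 11.9 and 10.9 CPM in siCtrl replicates 1 to 5 and 4.97, 6.56, 5.80, 5.58 and 5.88 CPM in siDDX41 replicates 1 to 5. Each knockdown library was below every control library, and the mean went from 11.1 ± 1.12 to 5.76 ± 0.572 CPM (SD, n = 5). The log2 fold change was -0.94 ± 0.08 (SE; adjusted p = 1.87e-11, edgeR quasi-likelihood test, Benjamini-Hochberg), a level of 0.520 of control.

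SNHG7, which carries the H/ACA snoRNAs SNORA17A and SNORA17B, was at 25.5, 30.3, 25.4, 27.0 and 29.4 CPM in siCtrl and at 17.5, 18.2, 18.5, 18.1 and 18.0 CPM in siDDX41. The knockdown libraries were all lower and lay closer together than the controls. Its log2 fold change of -0.61 ± 0.05 passed the test (adjusted p = 1.93e-11, edgeR quasi-likelihood test, Benjamini-Hochberg). SNHG7 (chr9:136721366-136728184, minus strand) shares 30.3% of its exon bases with DIPK1B on the other strand, and the settings of the count step on strand are not given in the sources used here, so reads of such pairs may be mixed.

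SNHG19 has 2 exons within 614 bases (chr16:2154792-2155405, minus strand) and hosts SNORD60. Its values were 14.7, 20.1, 15.3, 17.8 and 18.5 CPM in siCtrl and 10.5, 10.99, 12.3, 10.9 and 12.3 CPM in siDDX41, with no overlap between the groups. The log2 fold change was -0.60 ± 0.08 (adjusted p = 3.03e-07, edgeR quasi-likelihood test, Benjamini-Hochberg). None of its exon bases is shared with another counted gene, which also holds for SNHG18.

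SNHG1, the host of 8 box C/D snoRNAs from SNORD22 to SNORD31 on chromosome 11 (chr11:62851978-62855953, minus strand, 11 exons), was one of the more abundant members. It was at 101.8, 105.4, 102.6, 100.8 and 103.4 CPM in siCtrl and at 72.2, 80.5, 77.2, 72.4 and 70.2 CPM in siDDX41. The distance between the groups far exceeded the spread within either, with a log2 fold change of -0.46 ± 0.03 (adjusted p = 5.98e-13, edgeR quasi-likelihood test, Benjamini-Hochberg). SNHG8, the host of SNORA24 (chr4:118278703-118285316, plus strand), moved by a like amount. Its levels were 37.4, 38.6, 38.2, 39.6 and 40.7 CPM in siCtrl and 29.1, 29.1, 27.5, 29.1 and 28.2 CPM in siDDX41, a log2 fold change of -0.44 ± 0.04 with no overlap between the groups. Here 37.6% of the exon bases are shared with PRSS12 on the other strand.

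SNHG29 held the most counts, 24.2% of the summed CPM of all members in siCtrl. This gene contains SNORD49A, SNORD49B and SNORD65 on chromosome 17 (chr17:16438767-16480249, plus strand). It was at 272.5, 287.3, 273.6, 275.9 and 270.0 CPM in siCtrl and at 212.7, 207.1, 213.9, 214.8 and 220.9 CPM in siDDX41. All knockdown libraries were lower, and the log2 fold change was -0.37 ± 0.03 (adjusted p = 4.57e-13, edgeR quasi-likelihood test, Benjamini-Hochberg).

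Of the 3 members named outside the SNHG series, GAS5 and DANCR fell by small amounts and ZFAS1 did not pass the test. GAS5, which carries 10 box C/D snoRNAs and has long been used to study the decay of spliced host RNA, was at 123.0, 125.8, 120.0, 118.9 and 122.8 CPM in siCtrl and at 105.2, 108.5, 104.6, 106.6 and 102.6 CPM in siDDX41. The groups did not overlap although the log2 fold change was only -0.21 ± 0.03 (adjusted p = 1.60e-07, edgeR quasi-likelihood test, Benjamini-Hochberg). DANCR, the host of SNORA26, was at 103.1, 111.1, 98.4, 107.8 and 109.1 CPM in siCtrl and at 90.3, 83.0, 89.6, 95.0 and 90.6 CPM in siDDX41. It too was lower in each knockdown library, with a log2 fold change of -0.24 ± 0.04. ZFAS1, the host of the SNORD12 family, was at 21.6, 21.9, 20.9, 21.5 and 20.4 CPM in siCtrl and at 24.0, 23.6, 21.5, 20.02 and 21.1 CPM in siDDX41. Its groups overlapped, and the log2 fold change of 0.05 ± 0.05 did not pass (adjusted p = 0.402, edgeR quasi-likelihood test, Benjamini-Hochberg).

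**Figure D1:**
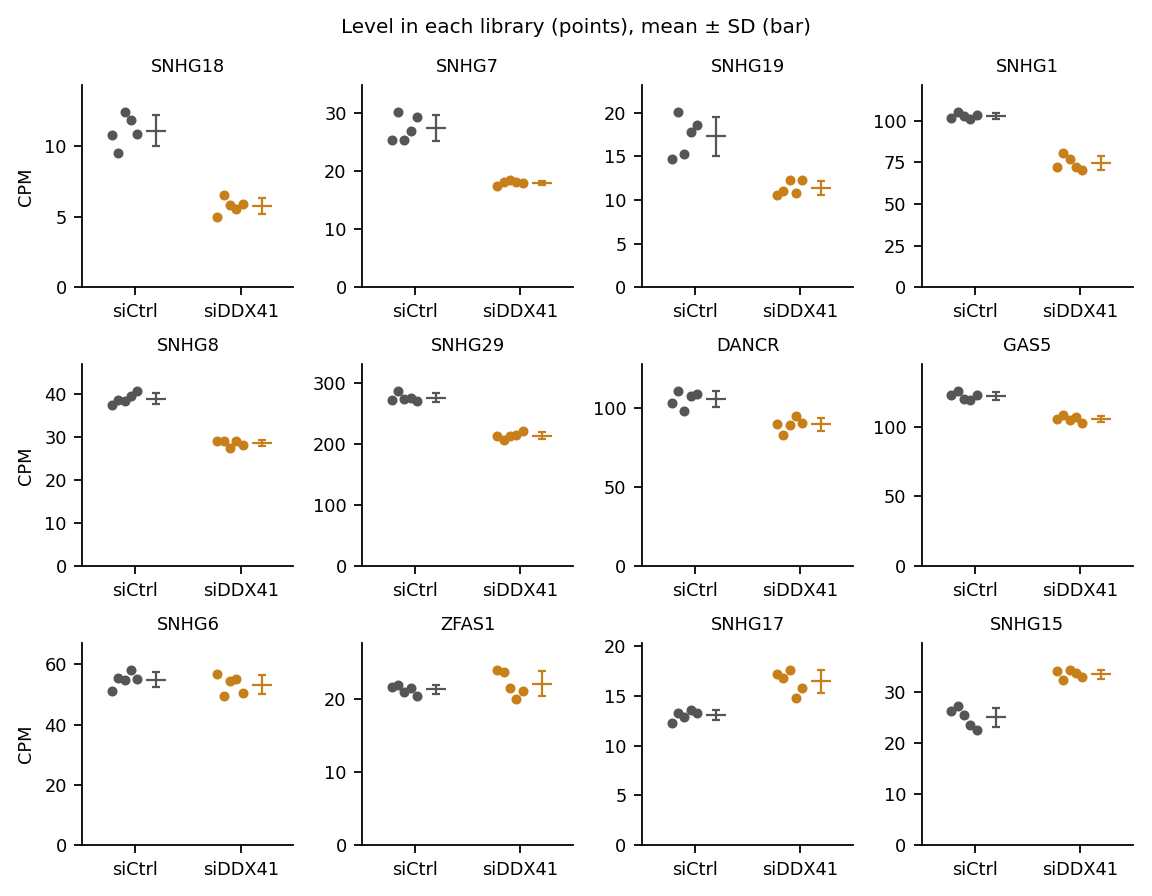
Level in CPM of 12 host genes in each of the 5 siCtrl (grey) and 5 siDDX41 (orange) libraries, with the mean and SD of each group as a bar beside the points and every axis starting at 0. The groups are apart for SNHG18, SNHG7, SNHG19, SNHG1, SNHG8, SNHG29, DANCR and GAS5 on the lower side and for SNHG17 and SNHG15 on the upper side, and they overlap for SNHG6 and ZFAS1.

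The other members that fell had log2 fold changes of the size of SNHG8 or smaller. SNHG12 and SNHG5 were at -0.44 ± 0.07 and -0.36 ± 0.06, and SNHG4, a host of SNORA74 copies, had -0.26 ± 0.07. SNHG3, which carries SNORA73A and SNORA73B, fell by 0.20 on the log2 scale from 100.2 ± 3.11 to 87.3 ± 2.31 CPM. SNHG16, the host of SNORD1A, SNORD1B and SNORD1C, had the smallest called change, from 100.1 ± 2.07 to 93.7 ± 1.68 CPM, a log2 fold change of -0.10 ± 0.03. Its call was lost without a filter on expression (adjusted p = 0.0178, edgeR quasi-likelihood test, Benjamini-Hochberg), the adjusted p of all alternatives ranging from 0.00211 to 0.0178. It was also lost with DESeq2's Wald test, at -0.09, and at -0.09 in each fit without siCtrl replicate 2, siCtrl replicate 4 or siDDX41 replicate 1, 2 or 3. The call of SNHG4 was lost without siDDX41 replicate 5, with a log2 fold change of -0.21.

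SNHG15 rose the most of the 4 upregulated members. This host of SNORA9 on chromosome 7 (chr7:44983019-44986961, minus strand, 3 exons) shares no exon base with another counted gene. It was at 26.1, 27.1, 25.5, 23.5 and 22.5 CPM in siCtrl and at 34.0, 32.2, 34.3, 33.7 and 32.8 CPM in siDDX41, higher in each knockdown library than in any control. The log2 fold change was 0.42 ± 0.05 (adjusted p = 5.19e-09, edgeR quasi-likelihood test, Benjamini-Hochberg), or 1.34 times the control level.

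SNHG17, the host of the SNORA71 copies on chromosome 20 (chr20:38419638-38435409, minus strand, 9 exons), was at 12.3, 13.3, 12.8, 13.6 and 13.3 CPM in siCtrl and at 17.2, 16.8, 17.6, 14.8 and 15.8 CPM in siDDX41. Its groups did not overlap, and the log2 fold change of 0.33 ± 0.06 passed the test (adjusted p = 8.97e-06, edgeR quasi-likelihood test, Benjamini-Hochberg). SNHG10, in which RefSeq places no snoRNA and GENCODE the Cajal body RNA SCARNA13, was at 6.86, 6.69, 5.64, 7.15 and 6.17 CPM in siCtrl and at 8.37, 8.56, 8.02, 7.16 and 7.24 CPM in siDDX41. The groups came close to each other, and the log2 fold change was 0.27 ± 0.08. Its call was lost when siCtrl replicate 3, siCtrl replicate 5 or siDDX41 replicate 2 was left out, with log2 fold changes of 0.23, 0.25 and 0.25.

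SNHG14 is the long imprinted transcript with the SNORD116 and SNORD115 arrays, 83 RefSeq snoRNAs in all (chr15:24978583-25420336, plus strand). Its values of 36.0, 34.3, 41.8, 38.9 and 39.1 CPM in siCtrl and 43.0, 46.5, 41.1, 42.4 and 42.7 CPM in siDDX41 overlapped, siCtrl replicate 3 lying above siDDX41 replicate 3. The log2 fold change of 0.18 ± 0.05 passed the test (adjusted p = 0.00102, edgeR quasi-likelihood test, Benjamini-Hochberg). The gene shares exon bases with SNRPN on its own strand and with UBE3A on the other. SNRPN, a spliceosomal protein gene of the same imprinted region, had a log2 fold change of 0.20 ± 0.06 and UBE3A 0.01 ± 0.03.

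The 11 members that did not pass the test were SNHG6, SNHG9, SNHG11, SNHG20, SNHG21, SNHG25, SNHG26, SNHG28, SNHG30, SNHG31 and ZFAS1, with log2 fold changes from -0.17 to 0.34. For 4 of them, SNHG21, SNHG25, SNHG28 and SNHG31, the mean level was under 2 CPM and the SE was over 0.20, so that a change of the size seen in SNHG3 was not detectable at this depth. SNHG6, a host of SNORD87, had the smallest change among the members of at least 5 CPM, next to ZFAS1. The order turned without some libraries, for example -0.06 for SNHG6 and 0.02 for ZFAS1 without siDDX41 replicate 1, and SNHG6 ranged from -0.07 to -0.02 over the fits without 1 library. Its values were 51.1, 55.5, 54.8, 58.2 and 55.0 CPM in siCtrl and 56.7, 49.6, 54.5, 55.3 and 50.3 CPM in siDDX41. The groups lay over each other, and the log2 fold change was -0.04 ± 0.04 with 58.9% of the exon bases shared with MCMDC2 on the other strand.

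The 3 members not tested were SNHG22 and SNHG27, with 8 and 20 counts over all 10 libraries, and SNHG32, which is listed at 0 in every library. All 16 protein-coding genes within 100 kb of SNHG32 are listed at 0 as well, so the 0 says nothing of its expression.

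Levels can be compared between the members only per length, here in CPM per kb of the canonical transcript in siCtrl. SNHG29 stood highest at 623 CPM per kb, followed by SNHG16 at 201, GAS5 at 159 and SNHG1 at 88.5. SNHG3 at 45.5 and SNHG19 at 43.9 did not differ beyond the spread of SNHG19, whose 5 control values had an SD of 2.27 around 17.3 CPM. At the low end SNHG31 and SNHG28 were at 0.356 and 0.272. The order depends on the transcript model, and the lengths are those of GENCODE 44. Over all exon bases annotated there, SNHG29 at 30.8 and SNHG19 at 28.2 CPM per kb did not differ beyond the spread of SNHG19, and SNHG16 was at 17.3.

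**Figure D2:**
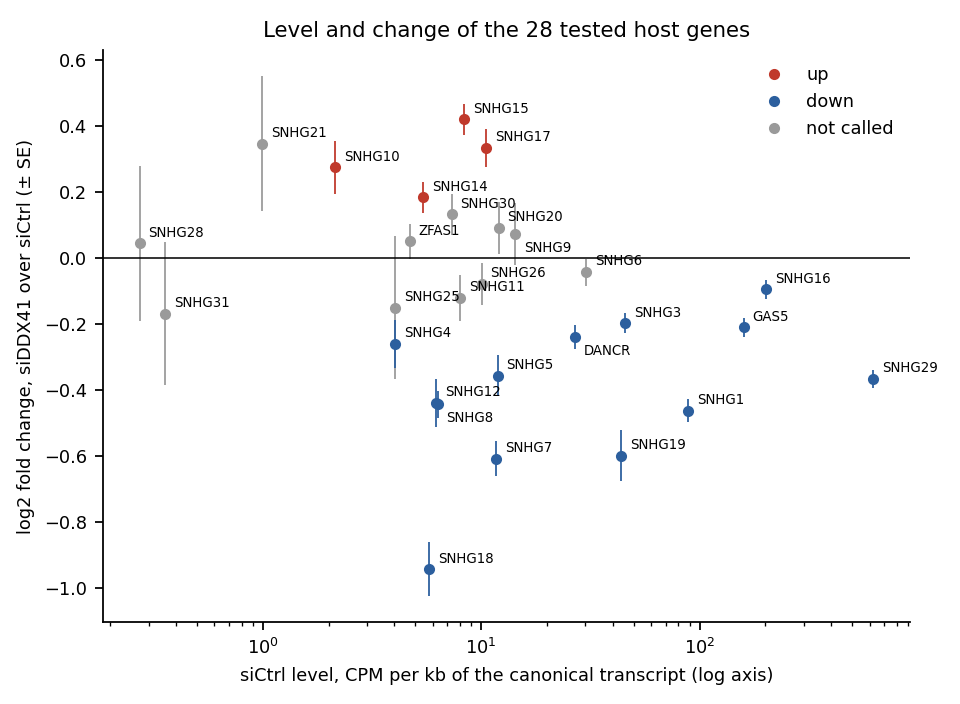
Control level in CPM per kb of the canonical transcript (log axis) against the log2 fold change with its standard error for the 28 tested host genes. Of the members to the right of SNHG9, at 14.2 CPM per kb, SNHG6 alone was not called and the others fell, while the 4 members that rose lie between SNHG10 at 2.14 and SNHG17 at 10.5 CPM per kb. The mark at SNHG9 was read from the plotted values. Shares of all genes on this scale were not computed, so the tally is a description only.

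The 9 members of at least 30 CPM over all libraries, a level chosen after the values were seen, comprised 7 that fell, SNHG14 that rose and SNHG6 that was not called. Of the 6785 genes at that level 34.4% fell and 40.8% rose. Of the 19 tested members under it, 6 fell, 3 rose and 10 were not called, with a median log2 fold change of -0.08. Of the 9358 genes under it 30.4% fell and 22.7% rose. The summed level of all 31 members was 1123, 1174, 1126, 1137 and 1146 CPM in siCtrl and 976.6, 977.3, 981.7, 978.6 and 972.7 CPM in siDDX41. The sum was thus lower in every knockdown library, at 0.857 of control, and was still at 0.882 of control without SNHG29. Across the 28 tested members, which share the libraries, Spearman's rho of the log2 fold change was -0.28 with the mean CPM, 0.05 with the length and -0.09 with the number of exons of the canonical transcript, and -0.26 with the number of RefSeq snoRNAs in the gene.

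By the class of snoRNA that RefSeq places within the gene, on either strand, 6 of 11 members with box C/D snoRNAs only fell and SNHG14 rose, beside 32.1% and 30.3% of all genes. Of 10 members with box H/ACA snoRNAs only, 5 fell, and SNHG15 and SNHG17 rose. GAS5 and SNHG12, which hold both classes, fell, and SNHG25, the third such gene, did not pass. The 4 members with neither class, SNHG10, SNHG20, SNHG21 and SNHG28, included none that fell and 1 that rose, and counts this small allow no comparison between the classes. The median log2 fold changes were -0.10 for the C/D group and -0.18 for the H/ACA group, and the difference between them was not tested. Of the windows around the start described above, TCTTT or CCTTT was present in 7 of the 13 members that fell, in none of the 3 with a window that rose and in 2 of 8 that were not called. The share over promoters of all tested genes was 7.55% and was not split by call, so no link of the letters with the calls can be read here. Of the members without either motif, GAS5 and SNHG3, which fell, and SNHG14, which rose, have windows outside their GENCODE spans.

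The snoRNA genes inside the hosts are also listed in the counts, although mature snoRNAs carry no poly(A) tail. Their counts were summed per host and fitted together with all other genes, and the sums of 6 members had enough counts to be tested. A sum could be formed for 26 members, of which 11 are listed at 0. None could be formed for GAS5, since no snoRNA gene inside it was matched between the count files and GENCODE 44, and the sums of SNHG1 and SNHG5 cover fewer snoRNAs than RefSeq places there. Of the 6 tested sums, 2 rose and 1 fell, against 30.3% and 32.1% of all features fitted with them, and over all hosts 5 of 24 sums rose and 1 fell. The median log2 fold change was 0.11 over the 6 sums of members and 0.33 over the 18 of other hosts. It was -0.0014 over all tested genes. Whether these reads come from mature snoRNA, from its precursors or from unspliced host RNA was not tested. The 2 snoRNAs with the largest sums are printed here from hg38, the box H/ACA SNORA73B of SNHG3 (chr1:28508559-28508762, plus strand, 204 bases) and the box C/D SNORD104 of SNHG25 (chr17:64146083-64146152, plus strand, 70 bases). Capitals mark the ACA box 3 bases from the end of SNORA73B and the C box TGATGA and D box CTGA of SNORD104.
SNORA73B: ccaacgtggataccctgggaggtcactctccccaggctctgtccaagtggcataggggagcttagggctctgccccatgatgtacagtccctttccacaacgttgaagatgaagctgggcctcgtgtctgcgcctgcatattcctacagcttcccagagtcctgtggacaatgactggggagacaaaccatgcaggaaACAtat
SNORD104: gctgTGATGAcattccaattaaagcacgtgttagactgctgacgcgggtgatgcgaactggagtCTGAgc

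SNORA73B, also called U17b, acts in cleavage of the ribosomal RNA precursor, and it was the 1 snoRNA of SNHG3 with counts. The 5 siCtrl libraries held 74, 75, 83, 60 and 70 counts and the 5 siDDX41 libraries 116, 116, 163, 116 and 121. The groups were far apart, the log2 fold change being 0.85 ± 0.10 (adjusted p = 2.67e-08, edgeR quasi-likelihood test, Benjamini-Hochberg). SNORA73B thus rose while SNHG3 fell, and there were 3.00 ± 0.298 SNORA73B counts per 100 SNHG3 counts in siCtrl and 6.19 ± 0.718 in siDDX41, without overlap. SNHG3 (chr1:28505980-28510892, plus strand) lies in the same direction as RCC1, which encodes the Ran exchange factor, and shares 5.92% of its exon bases with it. RCC1 fell from 135.8 ± 7.27 to 88.2 ± 5.61 CPM, a log2 fold change of -0.62 ± 0.04. SNORA73A, a closely related copy in the same host, is listed at 0, and how reads of such copies were divided is not given in the sources used here.

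The sum over the SNORA71 copies in SNHG17 rose with its host. It was 28, 21, 31, 24 and 21 counts in siCtrl and 32, 33, 47, 27 and 37 counts in siDDX41, and the groups overlapped. The log2 fold change was 0.53 ± 0.17 (adjusted p = 0.00723, edgeR quasi-likelihood test, Benjamini-Hochberg), and the call was lost in 6 of the 10 fits without 1 library. These left out siCtrl replicate 2, 4 or 5 or siDDX41 replicate 1, 3 or 5, with log2 fold changes of 0.47, 0.53, 0.48, 0.55, 0.44 and 0.52. With DESeq2's Wald test and the Benjamini-Hochberg method the adjusted p was 0.0291, over the threshold, and the alternatives ranged from 0.00268 to 0.0343. Per 100 SNHG17 counts there were 8.02 ± 1.66 in siCtrl and 9.12 ± 1.21 in siDDX41, which overlapped.

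SNORD104 of SNHG25 went the other way, with 66, 95, 85, 74 and 87 counts in siCtrl and 69, 54, 63, 42 and 44 in siDDX41. The groups overlapped in siDDX41 replicate 1, and the log2 fold change of -0.54 ± 0.14 passed the test (adjusted p = 0.00103, edgeR quasi-likelihood test, Benjamini-Hochberg). SNHG25 itself had fewer counts than its snoRNA, 281 against 679 over the 10 libraries, and a log2 fold change of -0.15 ± 0.22. At 70 bases SNORD104 is shorter than the 84-base reads. The sums in DANCR, SNHG12 and ZFAS1 did not pass, with log2 fold changes of -0.42 ± 0.23, -0.15 ± 0.24 and 0.37 ± 0.22. That of the SNHG12 sum was -0.03 without siDDX41 replicate 4 and -0.25 without siDDX41 replicate 5.

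**Figure D3:**
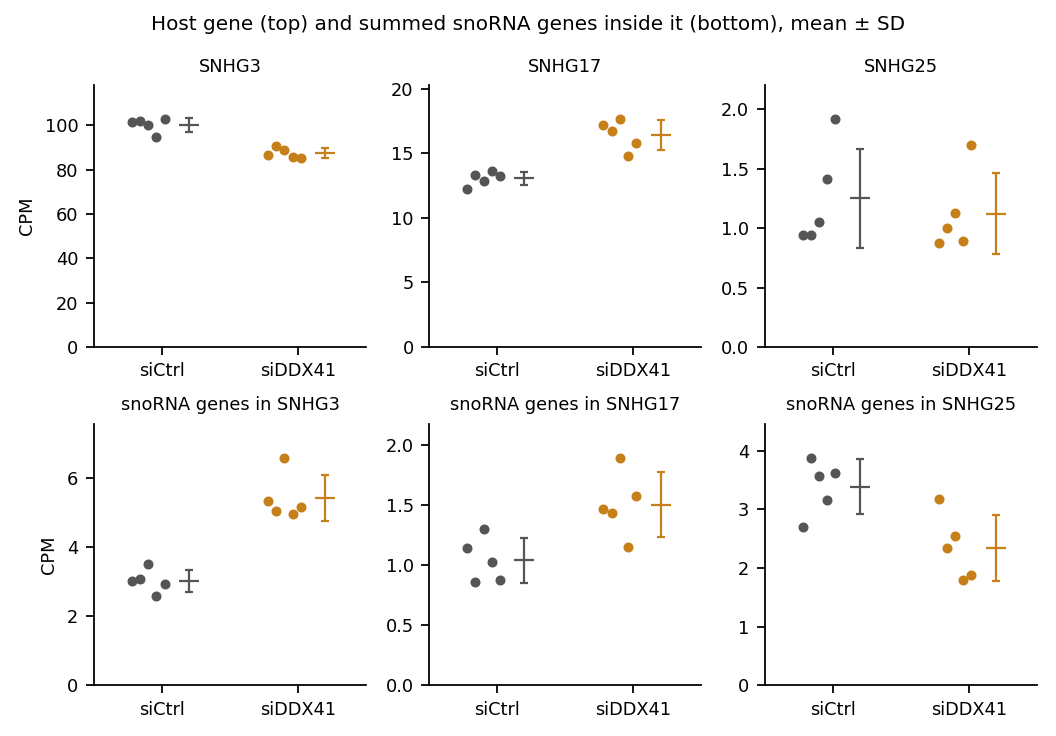
Level in CPM of SNHG3, SNHG17 and SNHG25 (top) and of the summed snoRNA genes inside them (bottom) in each of the 5 siCtrl (grey) and 5 siDDX41 (orange) libraries, with group mean and SD as a bar and every axis starting at 0. SNHG3 and its SNORA73B moved in opposite directions, both with log2 fold changes past the test, -0.20 and 0.85.

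Of the host genes, 8 start within 1 kb of a protein-coding gene that runs the other way, and 7 of these pairs had both genes tested. SNHG18 and SEMA5A, a semaphorin gene 95 bases away, both fell, with log2 fold changes of -0.94 and -0.65. SNHG19 and TRAF7, an E3 ubiquitin ligase gene 293 bases away, likewise both fell, by -0.60 and -0.68 on the log2 scale. SNHG1 and SLC3A2, the heavy chain of amino acid transporters, moved apart across 51 bases, with -0.46 for the host and 0.34 for the neighbour. GAS5 fell while ZBTB37 rose, at -0.21 and 0.71 and 800 bases apart. SNHG31 was not called whereas BARD1 fell by 0.30, and the pairs SNHG9 with RPS2 and ZFAS1 with ZNFX1 had no gene past the test. The neighbours named as rising or falling had adjusted p-values from 3.96e-15 for TRAF7 to 0.000238 for SEMA5A (edgeR quasi-likelihood test, Benjamini-Hochberg).

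Other genes of the same pathways were read from lists. Of the 7 tested core proteins of snoRNA particles, 5 rose, SNU13 fell and DKC1 did not pass, the median log2 fold change being 0.30, against 30.3% of all genes that rose and 32.1% that fell (40.8% and 34.4% of genes of at least 30 CPM). FBL is listed at 0 in every library, as are ZNHIT3 and PARN named below, and whether these zeros reflect expression was not tested. NOP58 of the box C/D particle rose from 130.5 ± 2.45 to 188.6 ± 7.90 CPM, a log2 fold change of 0.53 ± 0.03. GAR1 and NHP2 of the box H/ACA particle rose by 0.35 ± 0.04 and 0.40 ± 0.04. Among 13 tested assembly and processing factors 9 rose, SHQ1 fell and 3 did not pass (ZNHIT3 and PARN are listed at 0), with a median of 0.25. The R2TP chaperone subunits PIH1D1 and RUVBL1 rose by 0.58 ± 0.03 and 0.25 ± 0.03 and the H/ACA assembly factor NAF1 by 0.39 ± 0.05. Whether these changes are linked to those of the host RNAs was not tested.

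Of 18 genes for NMD factors and the exon junction complex, 5 rose (27.8%), 6 fell (33.3%) and 7 did not pass, with a median log2 fold change of -0.03, shares close to the 30.3% and 32.1% of all genes. CASC3, a junction complex subunit, fell from 171.3 ± 3.26 to 98.4 ± 2.80 CPM, a log2 fold change of -0.80 ± 0.03. The endonuclease gene SMG6 fell by 0.40 ± 0.04 on the log2 scale and SMG5 rose by 0.33 ± 0.03, and the helicase gene UPF1 had -0.06 ± 0.03 without passing. Of 8 protein-coding genes known to give NMD substrates, 4 rose, NAT9 fell and 3 did not pass, with a median of 0.28, again beside 30.3% and 32.1% of all genes. GADD45A rose from 33.7 ± 1.45 to 74.2 ± 3.29 CPM, a log2 fold change of 1.14 ± 0.04, and UPP1 and ATF4 rose by 0.90 ± 0.04 and 0.40 ± 0.03. These genes also answer to stress signalling, and the decay rate of no RNA was measured.

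Of 16 tested mRNAs with a TOP motif outside the ribosomal proteins, 8 fell, FAU and EIF3H rose and 6 did not pass, against 32.1% of all genes that fell and 30.3% that rose. The median was -0.04. EEF1D, among the 6 that did not pass, was at only 0.549 ± 0.159 CPM in siCtrl and 0.736 ± 0.0922 CPM in siDDX41. EEF1G is listed at 0 in every library, and whether this reflects its expression was not tested. RACK1 fell from 950.2 ± 20.2 to 527 ± 21.1 CPM, a log2 fold change of -0.85 ± 0.03, HNRNPA1 by 0.55 ± 0.03 and EEF1A1 by 0.32 ± 0.02. RACK1 is itself a snoRNA host. Of the 210 tested protein-coding genes with a snoRNA inside, 75 (35.7%) rose and 63 (30%) fell, the median log2 fold change being 0.03 compared with -0.14 for the lncRNA hosts. EIF4G2, RACK1 and ATP2B4 had the smallest adjusted p-values of these, with log2 fold changes of -0.86, -0.85 and -0.84. Of 1933 other tested lncRNA genes 373 (19.3%) rose and 427 (22.1%) fell, with a median of -0.01. Their leading genes, PEG13, LINP1 and DLGAP1-AS2, had log2 fold changes of -2.12, 1.56 and 1.29, each larger in size than any among the snoRNA host lncRNA genes.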

How the data were processed

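Polyadenylated RNA of the 10 U2OS samples was prepared with a stranded kit and read as single 84-base reads. The authors aligned reads to hg38 with STAR 2.7 and counted them per Gencode 25 gene with featureCounts 1.6, and deposited these counts per gene without normalization. The settings on strand and on reads with several matches are not given in the sources used here. Here genes were matched by identifier to GENCODE 44 (98.7% of tested genes), filtered by group with filterByExpr, scaled by trimmed mean of M-values and compared with edgeR 4.0.16 (robust quasi-likelihood test, Benjamini-Hochberg adjustment over all genes, threshold 0.01 as in the study) in R 4.3.3. Exon overlaps and lengths were taken from GENCODE 44 and not from the Gencode 25 exons that were counted. The test was checked on simulated data. Alternatives were DESeq2 1.42.0, its size factors, no filter, each library left out, other thresholds and members without exon overlap. Named members were GAS5, DANCR and ZFAS1, up to 5 called members per direction with the largest change at 5 CPM or more, the member with the smallest change there, and the most abundant per length. Up to 3 genes with the smallest adjusted p were named per comparison list (snoRNA particle, assembly, NMD, NMD substrates, TOP mRNAs, other hosts, other lncRNAs, divergent neighbours), with others given beside them. Members and lists were chosen with earlier results of these data known.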

Additional observations from a re-analysis of the deposited data

Results flagged for a closer look

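SNORA73B, the counted snoRNA of SNHG3, stood at 6.57 CPM in siDDX41 replicate 3, apart from the other 4 knockdown libraries at 4.94 to 5.34 CPM. Of 72 groups of 5 libraries examined in this way for the members, DDX41 and the snoRNA sums, this was the 1 with a library apart, and chance gives about 1 group in 20. All 5 knockdown libraries were above all siCtrl libraries, the highest of which was at 3.49 CPM.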

How the results depend on the processing

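The counts of members that fell stayed between 12 and 13, and of those that rose between 3 and 4, with DESeq2 size factors, without the filter, with DESeq2's Wald test and without any 1 library. Among the 7 tested members without exon overlap, 3 fell (SNHG16, SNHG18 and SNHG19, the call of SNHG16 being among those lost below) and 1 rose, fewer because fewer genes were counted, beside 32.1% and 30.3% of all genes. The DDX41 log2 fold change lay between -2.04 and -1.96 without 1 library. The median over members was -0.17 to -0.10 without 1 library. The snoRNA sums that rose numbered 1 with DESeq2's Wald test and 1 to 2 without 1 library, the cause was not tested. SNHG25 and SNHG28, not called, changed sign without 1 library: the log2 fold change of SNHG25 ranged from -0.35 to 0.053 and that of SNHG28 from -0.068 to 0.19. Of 476 log2 fold changes of members and sums under alternatives, 454 kept their direction and side of the threshold, 18 lost the call (SNHG10, SNHG16, SNHG4 and the SNHG17 sum) and 4 changed sign. Labels number the replicates alike in both groups, but deviations of same-numbered libraries did not move together (correlations -0.05 to 0.04). With the replicate block 13 members fell and 4 rose, the 17 calls without it, the snoRNA sums numbered 2 up and 1 down, and the median was -0.14. Members under 2 CPM are limited by depth.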
